A study of Mus musculus with 42 samples.

Results

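The genes described here are 10 genes of fatty acid synthesis, elongation and desaturation that are tied to the transcription factor encoded by Srebf1, out of 55487 gene identifiers in the count tables. They were chosen by name (Srebf1, Acly, Acaca, Fasn, Scd1, Scd2, Elovl5, Elovl6, Fads1 and Fads2), though with earlier results of these data known. All 10 were found in both tables by their mouse Ensembl identifier. SREBP-1, the product of Srebf1, is made as a precursor held in the endoplasmic reticulum and is cut and released to the nucleus when the cell is short of sterols or when insulin and mTORC1 signalling are active. Its targets make palmitate from citrate-derived acetyl-CoA, lengthen it, and put in double bonds. Myeloid leukaemia cells are known to use both made and imported fatty acids for membranes and for oxidation, and branched-chain amino acids can feed carbon into the same acetyl-CoA pool.

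The cells were leukaemia cells driven by the MLL-AF9 fusion, expressing GFP and luciferase, that had been harvested from 1 ill mouse, expanded in culture and injected by vein into unconditioned male recipients aged 8 to 10 weeks. Mice ate a standard amino acid (AA) diet or one free of branched-chain amino acids (BCAA), and received 5+3 or PBS vehicle once the leukaemia burden was high. 5+3 joined cytarabine (100 mg/kg a day, 5 days) to doxorubicin (3 mg/kg a day, during the first 3 of these days). GFP-positive viable cells were sorted from bone marrow when the response to chemotherapy was greatest, and each mouse gave an mRNA library and a footprint library, made from the pieces of transcript that translating ribosomes cover and protect from RNase. On the AA diet 5 mice had vehicle and 4 had 5+3, and on the BCAA-free diet 5 had vehicle and 7 had 5+3, which makes 42 libraries from 21 mice. Every group carried the same leukaemia, so no group shows normal marrow, and the age of the mice at collection was not analysed here.

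Total counts were 30996200 to 70437713 in the mRNA libraries and 2697092 to 8863472 in the footprint libraries. The 2 shallowest footprint libraries, at 2697092 and 2799639, were replicates 1 and 2 of the AA vehicle group. Mice of that group carry a suffix in their names that no other group has, and what it marks cannot be told apart from the group. In mRNA, 3 libraries of the BCAA-free vehicle group and 1 of the BCAA-free 5+3 group stood apart on the first principal component. The 8 markers of leukaemia and myeloid progenitors summed to 5040 CPM (counts scaled to a common library size) or more in every footprint library. In every mRNA library they summed to 5770 CPM or more. These sums do not give the level of each gene. Fat cell markers were low. The 8 adipocyte markers summed to between 0.871 and 5.24 CPM in footprints and to between 1.32 and 10.7 CPM in mRNA. Adipoq, which encodes adiponectin, had a median of 0 in footprints and of 0.0446 CPM in mRNA. These CPM use scaling by the trimmed mean of M values (TMM), and they rank libraries for 1 gene, not genes against each other, because transcript lengths were not used. In bulk libraries such as these, fewer cells of a type and less RNA per cell cannot be told apart.

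RefSeq windows of the 250 bases before the start site, on GRCm38.p6, were found for 7 of the 10 genes: 9 windows for Srebf1 (3 start sites), Acly, Acaca, Fasn, Elovl5, Elovl6 and Fads2. Scd1, Scd2 and Fads1 had none. The windows of Acaca, Fasn and Srebf1 lie inside the span of the gene, so the outermost start of these genes was not searched. That of Acaca is at chr11:84195188-84195437, whereas the gene starts at 84129635. The windows were searched on both strands for the sterol regulatory element TCACNCCAC, the E-box CACGTG, the CCAAT box and the GC box GGGCGG, motifs bound by SREBP or by the NF-Y and Sp1 factors that act beside it. The sterol element as spelled was in 1.05% of 32851 mouse windows of this length and in none of the 9. Other spellings of this element or of the E-box were not searched, so a window without a match may still hold a site. The E-box was in 6.02% of all windows and, among these genes, only in that of Elovl5, where it lay 161 to 156 bases before the start. CCAAT was in 33.8% of all windows, and was in that of Fasn 3 times, in that of Elovl5 at 2 places and in the first and the last window of Srebf1. GGGCGG was in 32.7% of all windows, and in those of Acly (4 times), Fads2 and the second and the last start of Srebf1. The 3 windows below, of the regulator, the synthase and an elongase, each hold more than 1 match, CCAAT among them. The Acly window and the second Srebf1 window, whose matches are GC boxes alone, are not printed. Capitals mark motif matches on either strand (ATTGG is CCAAT on the other strand). The Fasn capitals CCAATTGG are a CCAAT and its reverse sharing their middle bases. A match is a description of letters and not a measured binding site.
Srebf1, last start, chr11:60210472-60210721, minus strand: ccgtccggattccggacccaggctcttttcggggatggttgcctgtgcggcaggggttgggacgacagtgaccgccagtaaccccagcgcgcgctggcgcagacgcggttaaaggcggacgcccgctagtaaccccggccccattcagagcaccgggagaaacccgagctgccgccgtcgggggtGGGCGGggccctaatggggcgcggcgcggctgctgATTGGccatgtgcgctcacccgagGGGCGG
Fasn, chr11:120824548-120824797, minus strand: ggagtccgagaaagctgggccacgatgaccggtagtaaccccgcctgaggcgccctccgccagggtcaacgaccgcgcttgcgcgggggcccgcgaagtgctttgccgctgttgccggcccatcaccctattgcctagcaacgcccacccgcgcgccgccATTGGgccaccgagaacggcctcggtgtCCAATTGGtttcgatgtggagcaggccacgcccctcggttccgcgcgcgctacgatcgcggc
Elovl5, chr9:77917115-77917364, plus strand: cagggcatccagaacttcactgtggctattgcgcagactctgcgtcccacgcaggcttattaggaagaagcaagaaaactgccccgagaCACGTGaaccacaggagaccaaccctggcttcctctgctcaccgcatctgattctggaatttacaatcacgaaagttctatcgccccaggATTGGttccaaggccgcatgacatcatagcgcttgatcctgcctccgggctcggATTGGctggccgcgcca

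In footprints, 8 of the 10 genes had enough counts to be tested, and the clearest difference was between diets in mice given 5+3. Scd2, Fads1, Srebf1, Scd1 and Elovl5 were lower on the BCAA-free diet, while the genes that build palmitate itself (Acly, Acaca and Fasn) did not pass the threshold in edgeR. DESeq2 and limma voom called 6 of 8 each, with Acly as the gene added, at an adjusted p of 0.0433 (DESeq2) and 0.0481 (limma). Changes are log2 ratios with their standard error (SE) from the edgeR quasi-likelihood test, and a gene was called at an adjusted p under 0.05 over all 15723 genes tested in footprints. The 5 of 8 genes called lower stand beside 15.8% of all genes called lower in that comparison. Both the 5 and the 8 include Scd1, whose footprint change cannot be told apart from that of Scd2, as described below. The median change of the 8 was -0.40, against 0.00 for all genes. Elovl6 and Fads2, at 7 and 11 counts or fewer in any footprint library, were not tested there.

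Srebf1, the regulator, lies at chr11:60199084-60224186 on GRCm38, with ends that overlap Rai1, so that reads of the shared stretch cannot be assigned when the strand setting is not given. Its footprints were 46.9, 46.8, 26.0, 32.4 and 35.0 CPM in AA vehicle mice, 51.1, 44.9, 44.7 and 33.7 in AA 5+3 mice, and 30.7, 36.1, 33.2, 35.1 and 35.8 in BCAA-free vehicle mice. In BCAA-free 5+3 mice they ranged from 27.6 to 36.8 with a median of 30.3. Only the lowest of the 4 AA 5+3 mice fell inside that range. The change with diet under 5+3 was -0.46 ± 0.13 (adjusted p = 0.010, edgeR), or 1.38-fold lower. With vehicle, the diets differed by -0.11 ± 0.14 (adjusted p = 0.739, edgeR). Its mRNA was 44.8 ± 4.73, 58.0 ± 9.53, 48.4 ± 16.1 and 44.0 ± 10.5 CPM (SD, n = 5, 4, 5 and 7, groups in the same order), and no mRNA comparison called it. With 5+3 its footprints differed by 0.24 ± 0.14 on the AA diet (adjusted p = 0.339, edgeR) and by -0.12 ± 0.12 on the BCAA-free diet (adjusted p = 0.539, edgeR).

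Acly encodes ATP citrate lyase, which cuts citrate from mitochondria into acetyl-CoA. Footprint means were 216 ± 19.1, 239 ± 14.5, 206 ± 15.6 and 207 ± 17.2 CPM (SD, n = 5, 4, 5 and 7) in AA vehicle, AA 5+3, BCAA-free vehicle and BCAA-free 5+3 mice. The AA 5+3 mice, at 219.5 to 251.3, overlapped each other group. The diet difference under 5+3 was -0.21 ± 0.08 (adjusted p = 0.0581, edgeR), outside the threshold here though not under the other tools, and 26 of 28 pairs of mice were lower on the BCAA-free diet. With 5+3 the differences were 0.15 ± 0.09 on the AA diet (adjusted p = 0.341, edgeR) and 0.00 ± 0.08 on the BCAA-free diet (adjusted p = 0.983, edgeR). The r between the mRNA and the footprints of a mouse was -0.37 over 21 mice, a description that pools the groups.

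Acaca, for acetyl-CoA carboxylase 1, makes malonyl-CoA, the committed step. The gene overlaps Tada2a and 2 predicted genes. Footprint means were 68.3 ± 10.8, 79.6 ± 9.20, 61.2 ± 6.80 and 75.3 ± 10.5 CPM (SD, n = 5, 4, 5 and 7). Each AA 5+3 mouse, at 70.7 to 91.8, was above each BCAA-free vehicle mouse, at 50.7 to 69.1, and the other pairs of groups overlapped. The diets under 5+3 differed by -0.08 ± 0.12 (adjusted p = 0.65, edgeR; 95% interval -0.31 to 0.15). With 5+3 on the BCAA-free diet its footprints changed by 0.29 ± 0.11 (adjusted p = 0.0575, edgeR) and its mRNA by -0.36 ± 0.20 (adjusted p = 0.246, edgeR). It was the single gene of the 8 called for translational efficiency, the change of footprints relative to mRNA, at 0.65 ± 0.19 (adjusted p = 0.0366, edgeR) on that diet, beside 2.70% of 12097 genes called higher. That call was lost when any 1 of 7 mice was left out (replicates 2, 3 and 5 of BCAA-free vehicle and 1, 2, 4 and 5 of BCAA-free 5+3). Without the 4 mice whose mRNA stood apart, a fit that lacks 3 of the 5 vehicle mice on that diet, the change was 0.59 (adjusted p = 0.309, edgeR).

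Fasn, the fatty acid synthase that builds palmitate from malonyl-CoA, had footprints of 255.6, 265.2, 145.6, 169.2 and 229.0 CPM in AA vehicle mice and 288.0, 283.5, 380.9 and 224.8 on the AA diet with 5+3. BCAA-free vehicle mice were tightly placed at 196.9, 202.5, 197.8, 191.0 and 213.2. BCAA-free 5+3 mice ran from 217 to 327 with a median of 242, so each of them was above each vehicle mouse on that diet. The changes with 5+3 were nevertheless not called, at 0.47 ± 0.16 on the AA diet (adjusted p = 0.0735, edgeR) and 0.33 ± 0.14 on the BCAA-free diet (adjusted p = 0.0916, edgeR). Under 5+3 the diets differed by -0.22 ± 0.15 (adjusted p = 0.271, edgeR).

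Scd2 encodes a stearoyl-CoA desaturase, an enzyme of the endoplasmic reticulum that puts the first double bond into stearate and palmitate. It showed the largest difference among the tested genes in footprints. Values were 80.1, 103.0, 60.4, 77.5 and 64.5 CPM in AA vehicle mice, 161.2, 133.5, 136.7 and 89.7 in AA 5+3 mice, and 54.7, 49.4, 53.4, 46.7 and 54.5 in BCAA-free vehicle mice. BCAA-free 5+3 mice had 39.7 to 78.7 with a median of 49.6, below every AA 5+3 mouse. On the AA diet 5+3 went with an increase of 0.76 ± 0.17 (adjusted p = 0.0107, edgeR), and 19 of 20 pairs of mice were higher. It was the 1 gene of 8 called higher there, beside 3.49% of all genes. Under 5+3 the BCAA-free diet went with 2.43-fold less, a change of -1.28 ± 0.16 (adjusted p = 6.99e-06, edgeR). With vehicle the diet difference was -0.57 ± 0.17, which missed the threshold (adjusted p = 0.0741, edgeR) though no mouse of either group overlapped the other. In the BCAA-free mice 5+3 changed it by 0.05 ± 0.16 (95% interval -0.26 to 0.36).

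The same pattern was in the Scd2 mRNA. Its means were 82.3 ± 20.2, 147 ± 29.8, 67.6 ± 19.9 and 62.9 ± 17.9 CPM (SD, n = 5, 4, 5 and 7). The mRNA of AA 5+3 mice, at 104.1 to 173.4, did not overlap that of BCAA-free 5+3 mice, at 36.3 to 86.7, and the change was -1.22 ± 0.23 (adjusted p = 0.00782, edgeR). This was the only mRNA call among the 10 genes in the 5 comparisons, and 0.682% of 21114 genes were called lower there. Over the 21 mice, r between Scd2 mRNA and footprints was 0.88, which includes the differences between groups. Its translational efficiency changed by -0.03 ± 0.21 with diet under 5+3 (adjusted p = 0.979, edgeR). The call of Scd2 between diets under 5+3 stayed in every fit that left out 1 mouse, with changes of -1.42 to -1.14 in footprints and -1.35 to -1.12 in mRNA.

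**Figure D1:**
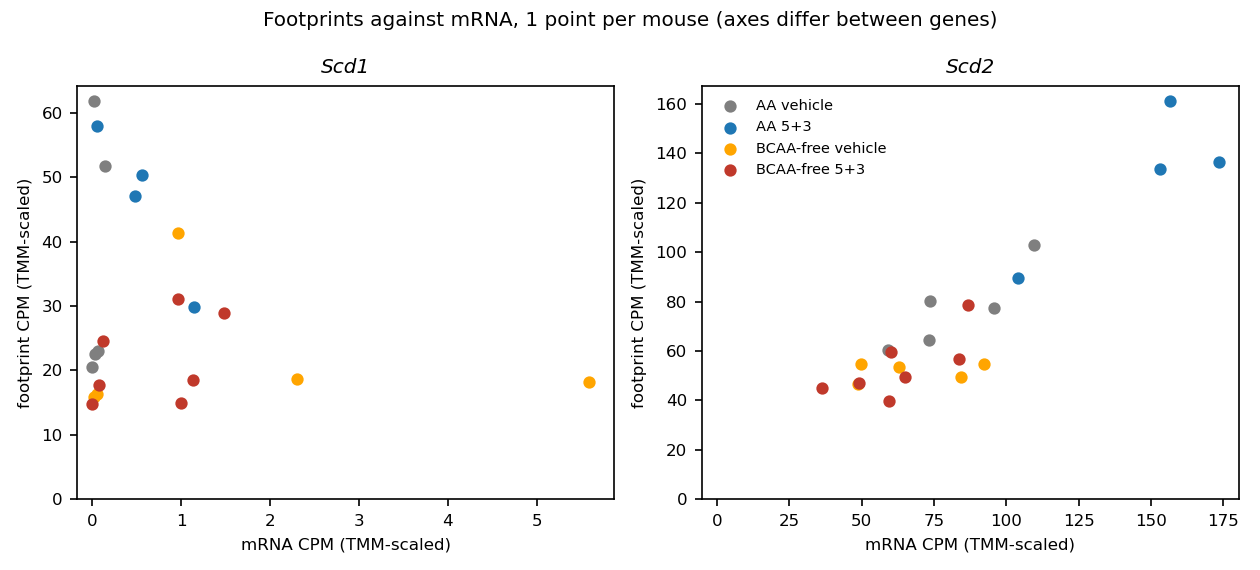
Footprint CPM against mRNA CPM for Scd1 and Scd2, 1 point per mouse, coloured by group (both axes linear, and scaled differently for the 2 genes). Scd2 rises along a line with 3 AA 5+3 mice at the top, while Scd1 has mRNA of 5.59 CPM at most and footprints of 14.7 to 61.8.

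Scd1, the liver and fat form of the enzyme, had almost no mRNA in these cells: 0 to 5.59 CPM, with a mean of 0.772 over 21 mice and 761 counts in all. Its footprints were 51.7, 61.8, 20.5, 23 and 22.6 CPM in AA vehicle mice, 57.9, 47.1, 50.4 and 29.8 in AA 5+3 mice, and 16.3, 15.9, 18.7, 41.4 and 18.2 in BCAA-free vehicle mice. BCAA-free 5+3 mice had 14.7 to 31.0 with a median of 18.5, and 1 of 28 pairs of mice was not lower than on the AA diet. The change was -1.13 ± 0.34 (adjusted p = 0.0189, edgeR). The mouse genome holds a row of near-identical Scd genes, and short footprints can match more than 1 of them. Scd3 and Scd4 had the same imbalance, with mean mRNA of 0.0917 and 0.0481 CPM and mean footprints of 23.5 and 12.0. Summed footprint counts were 7510 for Scd2, 2886 for Scd1, 2398 for Scd3 and 1218 for Scd4, against 86280, 761, 95 and 53 in mRNA. Scd1 footprints were 29.6% to 88.7% of those of Scd2 in the same mouse, with a median of 35.0%, while in mRNA the median was 0.247%. Which copy the Scd1, Scd3 and Scd4 footprints come from is therefore uncertain, and the Scd1 change cannot be told apart from that of Scd2.

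Fads1, the delta-5 desaturase that works on polyunsaturated fatty acids, was thinly covered, with 109 footprint counts summed over the AA 5+3 mice and 93 over the BCAA-free 5+3 mice. Its footprints were 4.72, 8.51, 3.54 and 5.31 CPM in AA 5+3 mice and 1.49 to 3.96 with a median of 2.31 in BCAA-free 5+3 mice, and 1 of 28 pairs of mice was higher on the BCAA-free diet. AA vehicle mice had 5.52, 6.37, 2.85, 1.67 and 3.12, and BCAA-free vehicle mice 1.09, 3.44, 2.17, 4.27 and 1.82. The diet difference under 5+3 was -1.23 ± 0.32 (adjusted p = 0.00595, edgeR), or 2.34-fold lower. With 5+3 it was 0.64 ± 0.35 on the AA diet (adjusted p = 0.29, edgeR) and -0.11 ± 0.34 on the BCAA-free diet (adjusted p = 0.853, edgeR). Its mRNA was 5.72 ± 1.74, 8.86 ± 3.28, 3.29 ± 2.11 and 5.52 ± 1.92 CPM (SD, n = 5, 4, 5 and 7), and the diets under 5+3 differed by -0.68 ± 0.57 (adjusted p = 0.676, edgeR). Fads2, the delta-6 desaturase, had 1 to 11 footprint counts per library and at most 1.68 CPM of mRNA.

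Elovl5, which lengthens polyunsaturated and some monounsaturated fatty acids, shares its locus with the lncRNA Gm34771. Its footprints were 50.2, 44.3, 37.0 and 43.6 CPM in AA 5+3 mice and 28.3 to 41.3 with a median of 35.8 in BCAA-free 5+3 mice. AA vehicle mice had 45.0, 38.2, 34.6, 29.2 and 35.9, and BCAA-free vehicle mice 30.2, 32.8, 29.3, 31.4 and 29.2. The diet difference under 5+3 was -0.34 ± 0.11 (adjusted p = 0.0284, edgeR). With 5+3 it was 0.28 ± 0.12 on the AA diet (adjusted p = 0.184, edgeR) and 0.19 ± 0.11 on the BCAA-free diet (adjusted p = 0.235, edgeR). Its mRNA was 53.8 ± 11.8, 63.0 ± 3.10, 49.6 ± 10.4 and 50.1 ± 8.97 CPM (SD, n = 5, 4, 5 and 7), and the diets under 5+3 differed by -0.33 ± 0.19 (adjusted p = 0.475, edgeR). Elovl6, which takes palmitate to stearate, had 1 to 7 footprint counts per library, and its mRNA had means of 1.19 to 2.86 CPM in the 4 groups with no call.

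**Figure D2:**
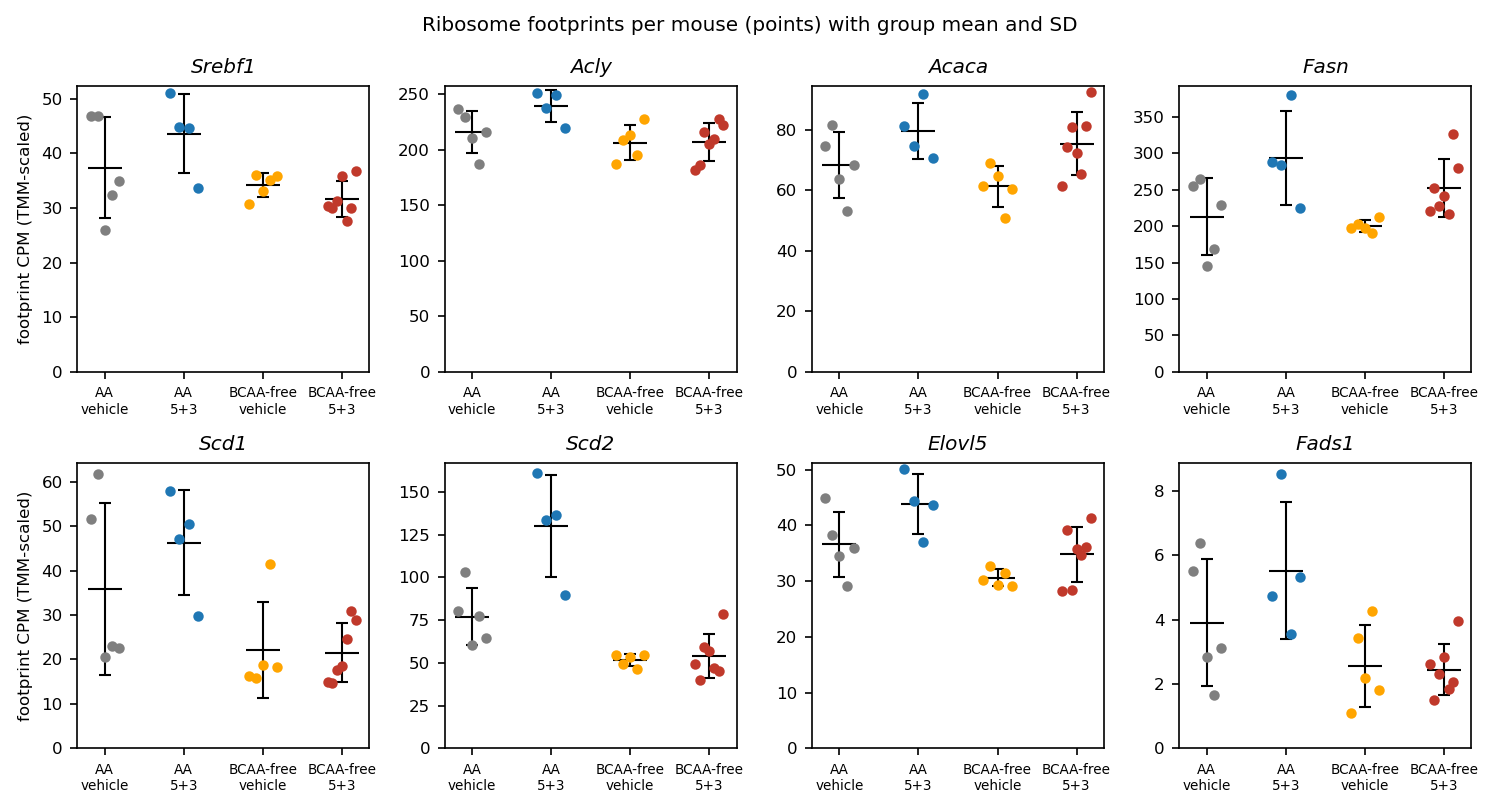
Footprint CPM (linear axes from 0) of the 8 tested genes, 1 point per mouse, by group, with the mean and SD. Scd2 lies at 89.7 to 161 in AA 5+3 mice and at 78.7 or below in every BCAA-free mouse, and the Acly values overlap between every 2 groups.

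Several calls between diets under 5+3 were lost when a single mouse was left out, in most cases a mouse of the AA 5+3 group. The share of all genes called was not counted in these fits. The part that fewer mice have in the losses was therefore not tested. Replicate 1 was the highest of its 4 mice for 5 of the 8 genes, and replicate 4 was the lowest for 6 of 8. Without replicate 1, edgeR called 2 of 8 genes instead of 5: Srebf1 was at -0.35 (adjusted p = 0.0771, edgeR), Scd1 to -0.98 (adjusted p = 0.0721, edgeR) and Elovl5 to -0.24 (adjusted p = 0.157, edgeR), while Scd2 and Fads1 stayed called. Without replicate 2, Fads1 was at -0.94 (adjusted p = 0.055, edgeR) and Elovl5 at -0.32 (adjusted p = 0.0691, edgeR). Without replicate 3, Scd1 was at -1.07 (adjusted p = 0.0505, edgeR). Elovl5 also lost its call without replicate 4 (-0.34, adjusted p = 0.0548, edgeR) and without replicate 1 of the BCAA-free 5+3 group (-0.29, adjusted p = 0.0556, edgeR). The Scd2 call for 5+3 on the AA diet was also lost without replicate 1, at 0.64 (adjusted p = 0.052, edgeR).

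The 2 shallowest footprint libraries, AA vehicle replicates 1 and 2, held the highest value of their group for all 8 genes. Without them, 4 of 8 genes were called higher with 5+3 on the AA diet rather than 1. Of all genes, 744 of 15955 were then called higher, rather than 549 of 15723. Srebf1 was then at 0.48 (adjusted p = 0.0297, edgeR), Fasn at 0.70 (adjusted p = 0.00922, edgeR) and Fads1 at 1.13 (adjusted p = 0.0491, edgeR), beside Scd2. The count between diets under 5+3 was 5 of 8 without these 2 libraries, and also without the 4 mice whose mRNA stood apart. Of all genes, 2533 of 15955 and 2066 of 16545 were called lower in these fits. The part that depth has in this was not tested.

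Chemotherapy on the BCAA-free diet called none of the 8 genes in footprints by edgeR, where 20.6% of all genes were called. Without the 4 mice whose mRNA stood apart that share was 2.39%, and the share between diets with vehicle was 0%. These fits lack 3 of the 5 BCAA-free vehicle mice, so the part that fewer mice have in the drop cannot be told apart. 2 genes (Acaca and Fasn) had an unadjusted p under 0.05, DESeq2 called 1 and limma voom 0. Between diets with vehicle the edgeR count was also 0, beside 2.04% of all genes, with 1 gene (Scd2) at an unadjusted p under 0.05, 1 called by DESeq2 and 0 by limma voom. The interaction, which asks whether 5+3 acted differently on the 2 diets, called 0 of 8 by edgeR beside 7.09% of all genes (0.659% without those 4 mice). Scd2 had an unadjusted p under 0.05 there, and DESeq2 and limma voom called 0. Its interaction was -0.71 ± 0.23 (adjusted p = 0.0644, edgeR). The call of Scd2 on one diet and not on the other is therefore not shown to differ between diets at this threshold.

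In mRNA, edgeR called 0 of 10 genes for 5+3 on the AA diet (0.0616% of all genes called), with 2 at an unadjusted p under 0.05 (Scd2 and Scd1) and 0 called by DESeq2 and by limma voom. It called 0 of 10 for 5+3 on the BCAA-free diet (8.56% of all genes, and 0.0779% without the 4 mice that stood apart), with 3 at an unadjusted p under 0.05 (Acly, Fasn and Fads2) and 0 called by either other tool. For the diets with vehicle the count was 0 of 10 (0% of all genes), with Scd1 alone at an unadjusted p under 0.05, 1 call by DESeq2, that of Scd1, and 0 by limma voom. For the interaction it was 0 of 10 (0.0758% of all genes), with 2 at an unadjusted p under 0.05 (Scd2 and Scd1) and 0 by the other tools. The Scd1 mRNA rests on 11 counts over the 5 AA vehicle mice and is not read further.

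Translational efficiency was called for 0 of 8 genes by edgeR for 5+3 on the AA diet (0% of all genes), for the diets with vehicle (0%), for the diets under 5+3 (0.0165%) and for the interaction (0.00827%). Genes at an unadjusted p under 0.05 were 0, 1 (Scd1), 0 and 1 (Acaca) in that order, and limma voom called 0 in each.

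**Figure D3:**
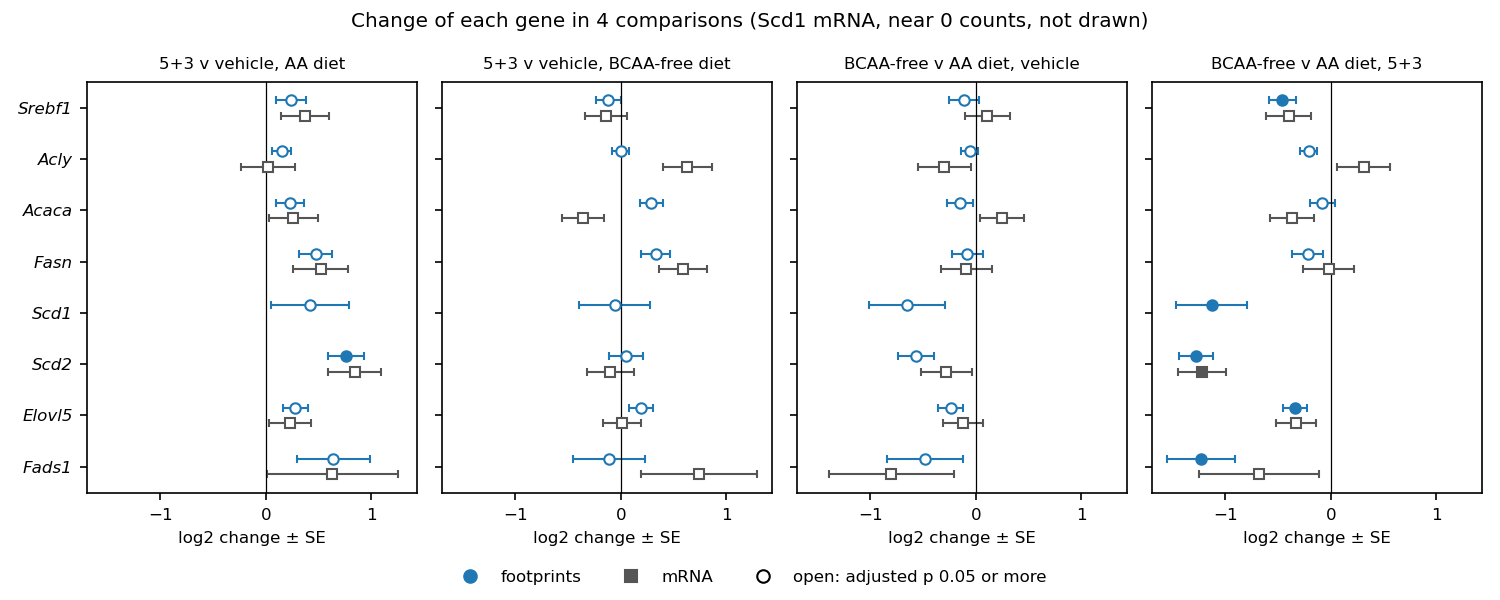
Log2 change with its standard error for the 8 genes in 4 comparisons, footprints as circles and mRNA as squares, filled where the adjusted p was under 0.05 (linear axis). Filled points gather in the comparison of diets under 5+3, where 5 footprint changes and the Scd2 mRNA change are filled. The Scd1 mRNA is left out because its counts were near 0.

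The 8 genes varied together across mice. The 28 pairs had correlations of log2 footprint CPM between 0.36 and 0.81 (median 0.63) over 21 mice, all above 0. With group means removed, the median was 0.49 and all 28 were still above 0. These points share libraries and depth, so the values are descriptions. Among 6089 genes with a mean of at least 10 CPM, those closest to Scd2 included Scd3 (r = 0.95), Scd4 (0.90), Cyp51 (0.90) and Srebf2 (0.88). Of these, Cyp51 encodes an enzyme of cholesterol synthesis and Srebf2 encodes the regulator of that pathway. The closest to Srebf1 was Smg1 (r = 0.81), to Elovl5 Nmt1, to Fads1 Scd1 and to Scd1 Scd3 (r = 0.86).

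Most tested genes of a list drawn up around SREBP were also lower in footprints between diets under 5+3. The list also holds genes that do not act on SREBP itself, such as Mlx and Mid1ip1. Of 13 listed, 8 were tested and 6 were called lower, beside 15.8% of all genes, with a median of -0.52. They were Srebf2 at -0.86 ± 0.14 (adjusted p = 9.62e-05, edgeR), Nr1h2, which encodes the oxysterol receptor LXR beta, at -0.75 ± 0.14, Mlx, a partner of the glucose-responsive factor ChREBP, at -0.53 ± 0.14, and Insig1, which holds SREBP in the endoplasmic reticulum, at -0.78 ± 0.24, with Mid1ip1 and the protease gene Mbtps1. For 5+3 on the AA diet edgeR called 0 of these 8, with 2 at an unadjusted p under 0.05 and 0 called by DESeq2 and limma voom. In mRNA edgeR called 0 of 13 between diets under 5+3, with 1 at an unadjusted p under 0.05, 1 called by DESeq2 and 0 by limma voom.

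In acetyl-CoA and NADPH supply, 5 of 8 tested genes were lower between diets under 5+3, and the median was -0.55. Those named by the smallest adjusted p were Idh1 at -0.81 ± 0.10 and G6pdx at -0.70 ± 0.13, both makers of NADPH, the citrate carrier Slc25a1 at -0.53 ± 0.10 and Mthfd1 of folate metabolism at -0.47 ± 0.10. Of the other elongation and desaturation genes, 3 of 13 were lower, near the 15.8% of all genes, with a median of -0.16: Scd3 (-1.21 ± 0.16), Scd4 (-1.08 ± 0.16) and Hacd2 (-0.93 ± 0.14), the last a dehydratase of the elongation cycle; the first 2 carry the doubt about Scd copies. Activation and esterification had 4 of 14 lower, with a median of -0.24: Lpcat3 at -0.61 ± 0.13, which loads polyunsaturated chains into phospholipids, Dgat1 at -0.65 ± 0.14, which makes triglyceride, Acsl4 at -0.38 ± 0.10 and Mboat7 at -0.43 ± 0.12.

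Between diets under 5+3, 12.5% of all genes were called higher. Fatty acid oxidation had 3 genes higher, among them Hadh at 0.51 ± 0.11 and Cpt1a at 0.82 ± 0.19, the gate of mitochondrial import, and 3 lower, of 14, with a median of 0.02. In the mitochondrial synthesis and carboxylase list 1 of 7 was called, Mcat, at 0.52 ± 0.18, and the median was 0.13. Of 4 tested uptake genes, with a median of -0.38, edgeR called 0, with 2 at an unadjusted p under 0.05 and 1 called by each of DESeq2 and limma voom.

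Cholesterol synthesis, the branch run mainly by SREBP-2, had the lowest median of the 9 metabolic lists between diets under 5+3, at -0.85. There 12 of 17 genes were lower, beside 15.8% of all genes. The lowest adjusted p values belonged to Fdps at -1.55 ± 0.11, Mvd at -2.27 ± 0.22, Sqle at -1.62 ± 0.19 and Fdft1 at -1.28 ± 0.15. With 5+3 on the AA diet 10 of 17 were higher, beside the 1 of 8 for the fatty acid genes and 3.49% of all genes. The interaction called 12 of 17, beside 0 of 8 and 7.09% of all genes. The 2 comparisons share the AA 5+3 mice, and no test of one list against the other was run. Summed over the 17 genes, footprints were 519 to 657 CPM in AA 5+3 mice and 249 to 326 in BCAA-free 5+3 mice, with 344 to 446 and 324 to 387 in the vehicle groups.

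**Figure D4:**
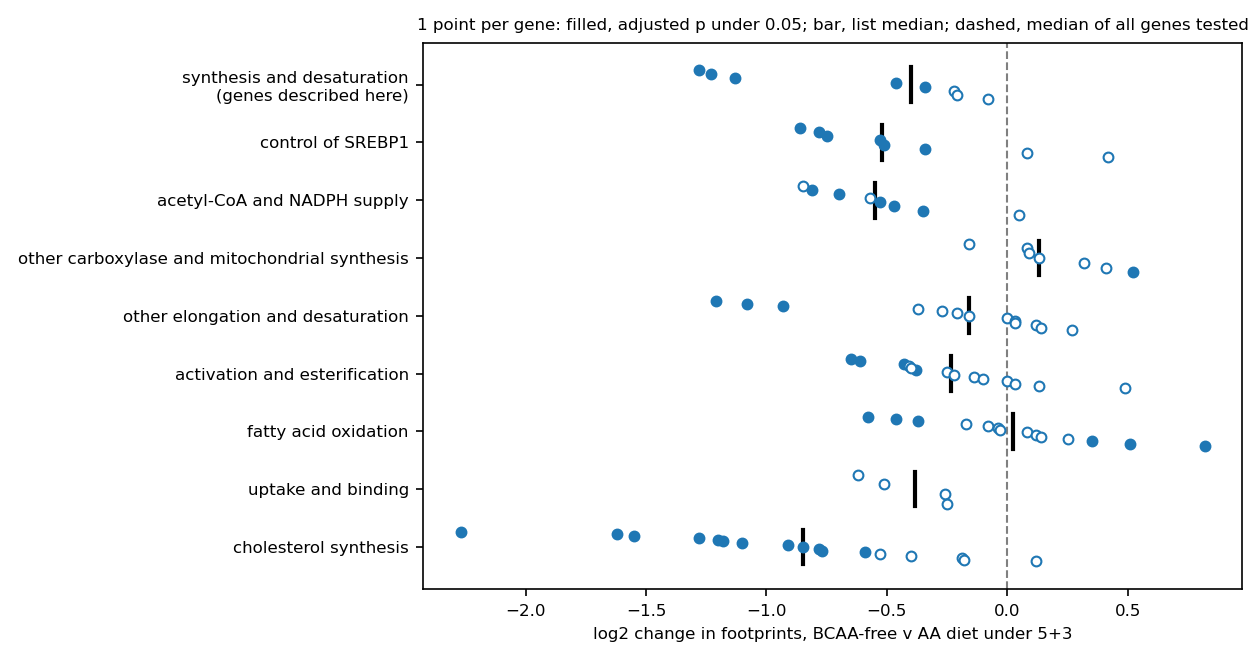
Log2 change in footprints between diets under 5+3, 1 point per tested gene, for the genes described here and 8 related lists, filled where called, with the list median as a bar and the median of all genes as a dashed line. Cholesterol synthesis sits at a median of -0.85 and fatty acid oxidation at 0.02.

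Some markers of other cells moved with the same comparison, in which 15.8% of all genes were called lower and 12.5% higher. Footprints of the 5 tested erythroid markers were all lower between diets under 5+3. Their list, 9 genes, summed to 95.5 to 152 CPM in AA 5+3 mice and 7.36 to 26.0 in BCAA-free 5+3 mice. In vehicle mice it summed to 32.5 to 146 on the AA diet and 112 to 215 on the BCAA-free diet. Mature neutrophil markers, 10 genes, summed to 720 to 2150 CPM in AA 5+3 mice and 115 to 1200 in BCAA-free 5+3 mice, with 5 of 10 called lower. Monocyte and macrophage markers had 2 of 9 tested genes lower, near the share of all genes, and the leukaemia and progenitor list had 1 higher and 3 lower of 8. For the lists of B cells, T and NK cells and endothelium with stroma edgeR called 0 of 2, 0 of 1 and 0 of 3, with 1, 0 and 1 at an unadjusted p under 0.05, 0, 0 and 1 called by DESeq2 and 0 in each by limma voom. The part of these cells in the changes of the fatty acid genes was not tested.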

How the data were processed

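Paired mRNA (Smart-seq2) and ribosome footprint libraries of 21 mice were analysed. Whole-number gene counts, as the authors deposited them, were the starting point, and their values show no normalization. Per the submitters' processing notes, the tools were featureCounts, STAR, Bowtie2, SAMtools and cutadapt, with mouse build GRCm38 (mm10). What is not given in the sources used here are versions, roles, annotation, strand and the handling of reads that match several genes, which bears on the Scd genes and on overlapping genes. Of 55487 identifiers, 55141 (99.4%) matched a symbol.

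Groups came from the labels. Counts were fitted in R 4.3.3 with edgeR 4.0.16 (filterByExpr with minimum count 10 and minimum total 15, TMM, robust quasi-likelihood test), 1 fit per kind of library over the 4 groups, and p was adjusted by the Benjamini-Hochberg method over all genes tested: 21114 in mRNA and 15723 in footprints. Translational efficiency was the interaction of library kind with group over 42 libraries with the mouse as a block, on 12097 genes. The SE is the change divided by the root of the F statistic. The 5 comparisons on 3 measures gave 15 results. Alternatives were DESeq2 1.42.0, limma 3.58.1 (voom), other scaling, no filter, fits of fewer groups or libraries and leaving out each mouse. The edgeR scripts were tested on simulated data.

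The mRNA and footprint libraries of a mouse are paired by the labels. Their deviations from the group means correlated with a median r of 0.156 across genes, over 0.1 in 15 of 21 mice, and for 7 of 21 the mRNA matched the mouse's own footprints best. Within groups, no 2 libraries of a kind were alike to within sampling noise (47 pairs of each kind). Labels call them biological replicates. Likeness between genes is Pearson's r of log2(footprint CPM + 1).

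The 10 genes were all fitted in mRNA, and 8 of them in footprints and translational efficiency. Of each related list up to 4 genes with the smallest adjusted p are named, and any other gene was picked with its values in view. The genes and lists were chosen with earlier results of these data known. Hsd17b8 and Ahsp were in the lists but matched no identifier. Some genes that the naming rule gives are not reported here.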

Additional observations from a re-analysis of the deposited data

Results flagged for a closer look

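For each gene, kind of library and group, the highest and the lowest mouse were compared with the rest by Dixon's test, in 80 groups of values. In 6 of them there was a mouse past the 95% limit, and chance alone gives about 1 in 20. Scd1 footprints of BCAA-free vehicle replicate 4 were 41.4 CPM (165 counts), the next mouse being at 18.7. Elovl5 mRNA of BCAA-free vehicle replicate 2 was 68.0 CPM, next to 47.1. The other 4 rest on 13 counts or fewer: Fads2 mRNA of BCAA-free vehicle replicate 3 at 0.23 CPM, Elovl6 footprints of BCAA-free 5+3 replicate 6 at 1.81, Fads2 footprints of AA 5+3 replicate 2 at 2.40, and Fads2 footprints of BCAA-free 5+3 replicate 6 at 1.29.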

How the results depend on the processing

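The 15 counts of called genes were recomputed under each alternative. In the fits that left out 1 mouse, calls over all genes were not counted. For 5+3 on the AA diet in footprints (1 gene), no filter and DESeq2 gave 2 each, leaving out the 2 shallowest libraries gave 4, and leaving out 1 mouse gave 0 to 2. Over all genes, 1039 of 15723 were called in the main fit and 1187 of 44314 with no filter. DESeq2 called 1223 of 15723, and the fit without the shallowest libraries 1463 of 15955. For 5+3 on the BCAA-free diet (0 genes), median-ratio scaling, no filter, DESeq2 and a fit of only the compared groups gave 1 each. Library sizes without mitochondrial, haemoglobin and pseudogene rows and leaving out the 2 shallowest libraries gave 2 each, and leaving out 1 mouse gave 0 to 1. The genes gained were Acaca and Fasn. Over all genes, 3242 of 15723 were called in the main fit, 2785 of 44314 with no filter, and 2973 to 3563 under the other full settings named. For diet with vehicle (0), no filter, DESeq2 and only the compared groups gave 1, Scd2. Over all genes these called 659 of 44314, 591 of 15723 and 388 of 14689, beside 321 of 15723 in the main fit. For diet under 5+3 (5), DESeq2, limma voom and the replicate block gave 6 each, no filter and the other library sizes gave 4 each, and leaving out 1 mouse gave 2 to 6. Over all genes, 4447 of 15723 were called in the main fit. DESeq2, limma voom and the block called 4312, 4426 and 3307 of 15723. No filter called 4008 of 44314 and the other library sizes 4765 of 15786. For the interaction (0), no filter gave 1, leaving out the 2 shallowest libraries gave 2 (Srebf1 -0.58, adjusted p = 0.028, and Scd2 -0.88, adjusted p = 0.0193, edgeR), and leaving out 1 mouse gave 0 to 1. Over all genes, no filter called 1341 of 44314 and the fit without the shallowest libraries 2102 of 15955, beside 1115 of 15723 in the main fit. In mRNA, DESeq2 gave 1 for diet with vehicle (161 of all 21114 genes), and leaving out 1 mouse gave 0 to 2 for 5+3 on the BCAA-free diet. Acaca efficiency went from 1 call to 0 without the 4 mice that stood apart, where 0 of 12975 genes were called, and from 0 to 1 over the fits without 1 mouse. Elovl5 between diets under 5+3 lost its call with no filter (adjusted p = 0.0747) and with those other library sizes (adjusted p = 0.0953, edgeR); these sizes also moved the split of all genes called there from 1967 higher and 2480 lower to 2846 and 1919. The cause of these moves was not tested.

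The replicate block gave 1 call for 5+3 on the BCAA-free diet in mRNA (Acly, 0.77, adjusted p = 0.0386, edgeR) in place of 0, and in footprints it added Acly between diets under 5+3 (-0.28, adjusted p = 0.0358, edgeR). In that mRNA comparison the block called 2743 of all 21114 genes, beside 1807 in the main fit. The labels do not say whether replicate numbers pair mice across groups. Of same-numbered pairs, 11 of 27 in mRNA and 7 of 27 in footprints had r over 0.1. Pairs with different numbers were not compared, so these values cannot decide it. No sign changed among the 403 alternatives of the 20 gene results called under at least 1 setting: 349 kept their call or lack of it, 19 lost it and 35 gained it. Genes at 11 footprint counts or fewer per library (Elovl6 and Fads2) are beyond what this depth can compare.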
